A study of Mus musculus with 18 samples.

Results

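The hearts described here are the 3 *Lmna*-/- hearts taken at 1 week of age and the 3 taken at 1 month, 6 of the 18 hearts sequenced, and the comparison is that of the older with the younger *Lmna*-/- hearts. All 6 come from C57BL/6 mice homozygous for the targeted allele *Lmna* tm1Stw, which every cell of the body carries from conception, and each library is the RNA of 1 entire heart. The study also holds 3 *Lmna*-/- hearts at 2 weeks and 3 WT hearts at each of the 3 ages, WT being littermates without the allele, and the WT hearts at 1 week and 1 month serve here as the reference for the same ages. The labels and the study's methods name a stranded kit for total RNA with removal of ribosomal RNA, and the labels also name a second kit, so which was used is uncertain. Counts were deposited in a separate table for each age, and the tables were joined by Ensembl gene ID. Of 47069 genes, the comparison took the 12359 that exceeded 5 counts in every one of the 6 *Lmna*-/- hearts, with genes of the mitochondrial genome set aside, since they hold 43.7% to 62.7% of a library. Values below are CPM, the counts of a gene scaled to a common total of nuclear counts, after trimmed-mean (TMM) normalization, each library being 1 replicate, and fold changes are log2 of 1 month over 1 week.

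Lamin A and lamin C, the products of *Lmna*, form with the B-type lamins the meshwork under the inner nuclear membrane to which chromatin, transcription regulators and the cytoskeleton are tied. Loss of A-type lamins in mice leads to dilated cardiomyopathy and death some weeks after birth. The first weeks after birth are also when a normal mouse heart leaves the cell cycle, replaces fetal with adult isoforms of contractile proteins and turns from glucose and lactate to fatty acids as fuel, so a difference between 1 week and 1 month holds both growth and disease.

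The 6 libraries had 9344185 to 25404168 counts, of which 3486510 to 14309514 lay on nuclear genes. A floor of 3 counts is thus 0.21 to 0.86 CPM of nuclear genes, and it covers counting error only. The 6 markers of cardiomyocytes summed to 36900 to 44700 CPM at 1 week and to 49400 to 59500 at 1 month, and thyroglobulin, *Tg*, chosen after its values were seen, was at 303 CPM in replicate 3 of the 1-week hearts and at 3.70 to 8.46 in the other 5. Hearts of 1 week varied more than those of 1 month: the median SD of a gene over 3 hearts was 0.203 on the log2 scale at 1 week and 0.152 at 1 month, and 7772 of the 12359 genes had the larger SD at 1 week. Replicate 1 of the 1-week hearts stood apart from the other two, with a median absolute log2 difference of 0.271 from them and of 0.323 from the 1-month hearts, while the other 1-week hearts lay 0.218 to 0.224 from their group and 0.354 to 0.377 from the 1-month hearts. Replicate 2 of the 1-week hearts held the most counts of skeletal muscle markers, 814 CPM over 8 genes against 16.1 to 221 in the other 5. Counts from *Xist* (1.79 CPM or less) and from the Y chromosome place no *Lmna*-/- heart at these ages apart in sex, whereas *Xist* was high in 1 WT heart at 1 week and 2 WT hearts at 1 month. Each age stands in its own table, so age and any difference in handling between the tables cannot be told apart, and p-values measure the spread between these hearts.

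*Lmna* itself (ENSMUSG00000028063, GRCm38 chromosome 3, 88480147 to 88509956, minus strand) had 26, 37.6 and 74.5 CPM in the 3 *Lmna*-/- hearts of 1 week and 35.9, 31.8 and 31.3 in those of 1 month. The value of 74.5 is that of the library labelled *Lmna*-/- replicate 3 at 1 week, and without TMM that library had 78.0 CPM, where the other 5 *Lmna*-/- libraries had 26.7 to 40.0 and the 6 WT libraries 91.8 to 141. The log2 fold change with age was −0.49 (standard error 0.31, adjusted p = 0.274, edgeR). Of 153 called genes named in the text, all 153 kept their direction and 117 their call without this library, and 113 to 150 kept it without another of the 6.

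Between 1 week and 1 month 1726 of the 12359 genes rose (14.0%) and 1759 fell (14.2%) in *Lmna*-/- hearts at an adjusted p under 0.05 (edgeR quasi-likelihood test, Benjamini-Hochberg). Scaling by library size alone moves the median of all genes from −0.0062 to −0.166 and gives 1146 rises and 2928 falls, so directions here are relative to the bulk of nuclear genes. Among the 3485 called genes 1229 changed at least 2-fold and 244 at least 4-fold, and the median size of change was 0.786 on the log2 scale. In 5422 genes, 43.9% of those tested, no heart of one age reached into the range of the other age. Without replicate 1, 2 or 3 of the 1-week hearts 4898, 2739 and 2075 genes were called, and without replicate 1, 2 or 3 of the 1-month hearts 2172, 2282 and 2084. Genes are described below by lists of known function, each set beside the shares just given and beside the median of all genes tested.

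The cell cycle held the deepest fall. Of 40 genes of mitosis, 21 passed the filter on counts, and all 21 of these were called lower, with a median log2 fold change of −4.34. That filter asks for more than 5 counts at 1 month as well, and the 19 genes it left out were lower in each 1-month heart than in each 1-week heart, at 16.4 to 83.9 CPM pooled over the 1-week hearts and 0.361 to 1.29 over the 1-month hearts. When tested without the filter, 40 of 40 were called lower.

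Promoters of 3 of these genes are shown, as they stand for the genes with the deepest falls and those left out by the filter: topoisomerase II alpha (*Top2a*), which untangles replicated chromosomes, and the mitotic kinase *Cdk1* with its partner cyclin B1 (*Ccnb1*). Each is the 150 bases before the transcript start in RefSeq (GRCm38.p6), read in the direction of the gene, at chr11:99024190-99024339 (minus strand) for *Top2a*, chr10:69352913-69353062 (minus strand) for *Cdk1* and chr13:100786487-100786636 (minus strand) for *Ccnb1*. Capitals mark CCAAT, the box bound by NF-Y, and TTTGAA, the core of the element known as CHR, on either strand (ATTGG and TTCAAA on the other).
Top2a: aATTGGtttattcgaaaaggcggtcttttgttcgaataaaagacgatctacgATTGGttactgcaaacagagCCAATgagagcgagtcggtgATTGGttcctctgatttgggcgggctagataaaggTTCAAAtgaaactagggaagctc
Cdk1: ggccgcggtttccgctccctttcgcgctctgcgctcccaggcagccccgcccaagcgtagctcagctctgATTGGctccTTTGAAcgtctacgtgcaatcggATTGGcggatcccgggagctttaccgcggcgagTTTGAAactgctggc
Ccnb1: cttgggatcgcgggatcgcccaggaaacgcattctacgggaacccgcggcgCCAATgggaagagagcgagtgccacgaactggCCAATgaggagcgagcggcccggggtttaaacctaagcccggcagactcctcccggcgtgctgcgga
*Top2a* holds 4 CCAAT boxes and 1 TTTGAA, *Cdk1* holds 2 of each and *Ccnb1* holds 2 CCAAT boxes and no TTTGAA in the stretch printed. Over windows of 300 bases (250 before the start and 50 after), 34 of the 40 mitosis genes had an entry, and 27 of them (79.4%) held CCAAT and 25 (73.5%) TTTGAA, against 41.1% and 20.2% of all 27025 genes with an entry and 42.6% and 13.9% of the 9441 of them tested here. The motif of E2F factors TTCCCGC lay in 0 of the 34 mitosis windows and in 12 of the 28 windows (42.9%) of DNA replication genes, where it lay in 5.29% of all windows and in 9.86% of those of genes tested. These are matches of letters in a window, not sites shown to be bound.

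*Top2a* had 102, 314 and 474 CPM in the 1-week hearts and 4.32, 10.9 and 7.22 in the 1-month hearts (−5.39 on the log2 scale with a standard error of 0.58, adjusted p = 0.000543). The kinesin *Kif11*, which drives the spindle poles apart, had 35.8, 90.00 and 142 CPM at 1 week and 2.76, 6.89 and 2.96 at 1 month (−4.5, adjusted p = 0.000668). The highest 1-month value of either gene is below its lowest 1-week value. *Cdk1*, left out by the filter, had 86, 890 and 592 counts at 1 week and 9, 11 and 5 at 1 month, which is 24.7, 62.2 and 93.1 CPM without TMM against 1.01, 2.26 and 0.892. *Ccnb1* had 18.9, 55.0 and 95.9 CPM at 1 week and 0.672, 1.03 and 0.357 at 1 month. In each of these 4 genes replicate 1 of the 1-week hearts is the lowest of the 3. Over the 21 tested mitosis genes its median lay 0.807 log2 units above the genes' mean over the 6 hearts, where replicates 2 and 3 lay 2.22 and 2.77 above and the 1-month hearts 2.14, 1.33 and 1.99 below. Cyclin A2 (*Ccna2*), the kinesin *Kif4* and *Prc1*, a bundler of spindle microtubules, fell by 5.29, 5.38 and 4.97 on the log2 scale, and *Aspm*, *Kntc1*, *Iqgap3*, *Pclaf* and the linker and core histone genes *Hist1h1a*, *Hist1h1b* and *Hist1h2bn* fell by 4.72 to 4.99. Histone genes have close copies, so reads of one may be counted to another or lost.

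Of 35 DNA replication genes 27 were tested, and 24 of these fell (median −1.66), while *Rfc1*, *Rfc2* and *Rfc5*, subunits of the clamp loader, were not called at −0.068, −0.72 and −0.60. *Rrm2*, the subunit of ribonucleotide reductase that sets the supply of DNA precursors, had 32.2, 92.5 and 184 CPM at 1 week and 4.56, 7.78 and 2.96 at 1 month (−4.39, adjusted p = 0.00138). The helicase subunits *Mcm2* and *Mcm5* changed by −2.35 and −2.97, and the sliding clamp *Pcna*, at 46.2, 81.6 and 113 CPM and then 36.3, 36.2 and 35.9, by −1.16 (all called lower). The ages do not overlap for *Pcna*, and the median fall of the replication list is smaller than that of the mitosis list. Among 14 cyclins of the D and E type and cell cycle inhibitors, 9 fell and 2 rose: *Rbl2*, a pocket protein of quiescent cells (0.67), and *Cdkn1a*, the inhibitor p21, at 18.5, 41.7 and 33.5 CPM at 1 week and 68.6, 45.6 and 61.9 at 1 month (0.87, adjusted p = 0.0328). Cyclins D1 and D2 (*Ccnd1* and *Ccnd2*) changed by −1.55 and −0.47, both called lower, and *Ccne1* by −2.27. Without replicate 1 of the 1-month hearts 4 of this list fell and without any other of the 6 hearts 6 to 9, while 1 to 3 rose, 1 of them without replicate 3 of the 1-week or replicate 1 or 3 of the 1-month hearts. Among genes of DNA damage response and repair, 14 of 23 tested genes fell and 1, *Xrcc5* of the Ku complex, rose (0.51). *Bard1*, the partner of BRCA1, had the largest fall of these (−2.94). Without replicate 3 of the 1-week hearts 8 of the repair genes fell, and without replicate 1 or 2 of the 1-month hearts 7 and 9. None rose without any of these 3 hearts or without replicate 2 of the 1-week hearts.

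The fall of the mitosis list with age was of similar size in WT hearts. In the fit over the 12 *Lmna*-/- and WT hearts of both ages its median was −4.36 in *Lmna*-/- and −3.97 in WT hearts, where 22.0% of 12124 genes rose and 22.1% fell in WT hearts, and no mitosis gene passed the test of the difference. The ages between differed: relative to the mean of the 1-week *Lmna*-/- hearts, the list's median was −3.11, −2.66 and −3.16 in the *Lmna*-/- hearts of 2 weeks and −1.22, −0.86 and −1.23 in the WT hearts of 2 weeks, and at 1 month −4.16, −3.46 and −3.98 and −3.97, −3.36 and −3.8. The 1-week *Lmna*-/- hearts stood at −1.1, 0.28 and 0.83, the first of them below the 3 WT hearts of that age (0.44, 0.054 and 0.36). For all 21 genes the 2-week *Lmna*-/- mean lay between those of 1 week and 1 month and nearer to 1 month, with a median step of −3.20 from 1 to 2 weeks and −0.759 from 2 weeks to 1 month.

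**Figure D1:**
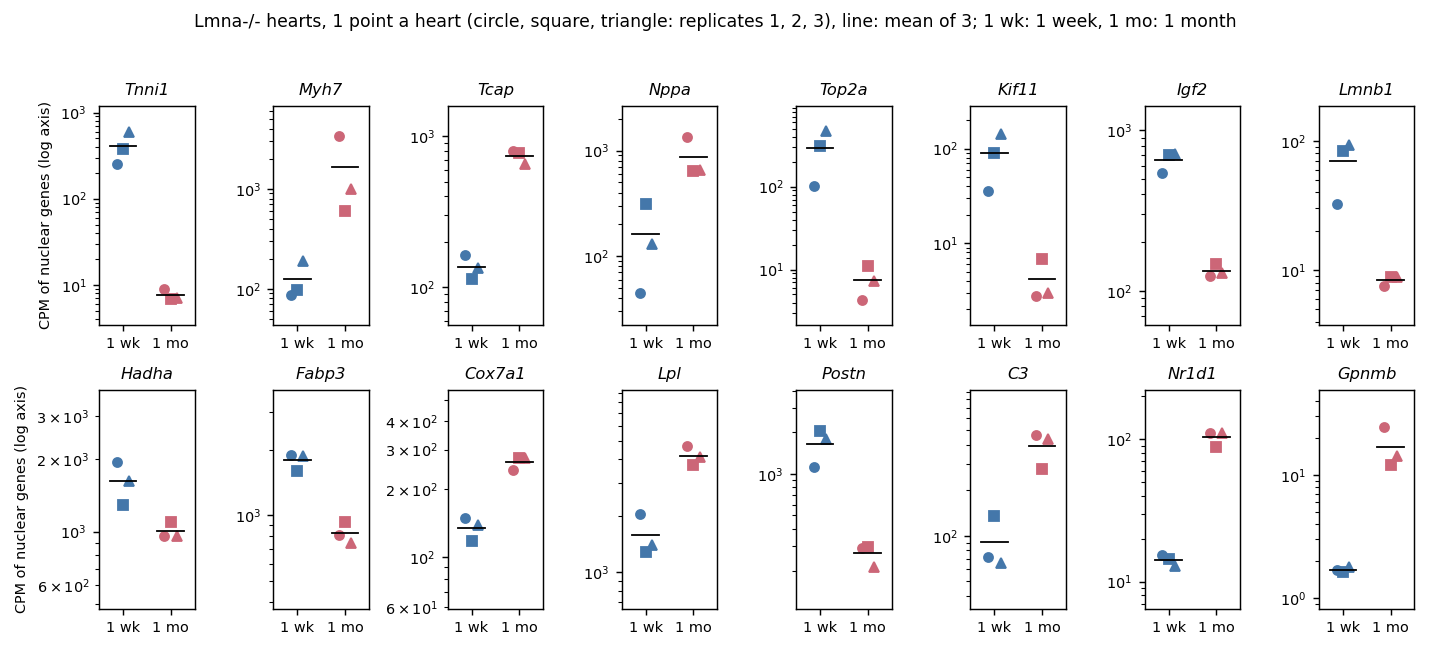
CPM of nuclear genes (log axis) of 16 genes in the 3 *Lmna*-/- hearts of 1 week (blue) and the 3 of 1 month (red), 1 point a heart with the symbol giving its replicate number, and a line at the mean. The 16 genes were picked by hand from those named in the text, and named genes that overlap, such as *Nppb* and *Cd36*, are not shown. The 2 ages do not overlap for any of the 16, as for 43.9% of all genes tested. Replicate 1 of the 1-week hearts (circle) is the lowest of its age for *Tnni1*, *Myh7*, *Nppa*, *Top2a*, *Kif11*, *Igf2*, *Lmnb1* and *Postn*. It is the highest for *Tcap*, *Hadha*, *Fabp3*, *Cox7a1*, *Lpl* and *Nr1d1*.

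Other genes of the nuclear envelope moved in both directions. B-type lamins, the partners of the missing A-type lamins, fell, as they did in WT hearts. In *Lmna*-/- hearts *Lmnb1* had 32.5, 83 and 93.5 CPM at 1 week and 7.56, 8.89 and 8.89 at 1 month (−3.08, adjusted p = 0.000639), and *Lmnb2* changed by −1.42. *Tmpo*, which encodes the lamin-binding LAP2 proteins, and the nucleoporin *Nup210* also fell (−1.25 and −1.57). The 5 that rose were *Sun2* (65.5, 66.2 and 62.7 CPM, then 111, 99.8 and 111, log2 fold change 0.72) and *Sun1*, which link lamins to the cytoskeleton, *Zmpste24*, the protease that matures prelamin A, *Tor1aip1* and *Tmem43*, all of them membrane proteins of this envelope, by 0.38 to 0.62 for the last 4. In all 4 genes fell, 5 rose and 8 were not called of 17, with a median of 0.047, and the same list had a median of −0.033 in WT hearts. Without replicate 1 of the 1-week hearts 3 rose and 7 fell, without replicate 1 or 3 of the 1-month hearts 2 rose, and without replicate 3 of the 1-week or replicate 2 of the 1-month hearts 3 rose. In the fit over both genotypes *Lmnb1* changed by −3.09 in *Lmna*-/- and −3.16 in WT hearts, and *Lmnb2* by −1.45 and −1.17. Neither gene passed the test of the difference.

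Imprinted growth genes, expressed from 1 parental allele and known to be shut down together as organs stop growing after birth, fell with few exceptions. Of 14 tested 12 were called lower and none higher, with a median of −1.47, and the other two, *Peg10* and *Sgce*, were at −0.88 and −0.48. The growth factor *Igf2* had 538, 704 and 712 CPM at 1 week and 123, 147 and 129.7 at 1 month (−2.29, adjusted p = 8.7e-05). Its neighbour *H19*, a noncoding RNA, had 236, 635 and 532 CPM and then 73.5, 61.1 and 78.2 (−2.72). *Mest* fell most, from 112, 218 and 281 CPM to 10.3, 16.2 and 12.2 (−4.01, adjusted p = 0.000182), and these 3 genes show no overlap between the ages. The IGF signaling genes were mixed, with 6 higher, 3 lower and 11 not called of 20: *Igf1* fell (−0.77) as did the mRNA-binding proteins *Igf2bp2* and *Igf2bp3* (−1.29 and −1.98), while the insulin receptor substrate *Irs2* rose (1.7) and the receptor *Igf1r* was not called (0.19). Without replicate 1 of the 1-week hearts 10 rose.

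Among sarcomere genes of the fetal and newborn heart, 1 of 10 fell, 1 rose and 8 were not called, and the 2 that moved went opposite ways. Leaving out replicate 1 of the 1-week hearts gave 5 that fell, and leaving out replicate 2 of that age gave 3 that rose. *Tnni1*, the slow skeletal troponin I of the fetal heart, had the largest fall of all 12359 genes, from 252, 377 and 599 CPM to 9.0, 6.89 and 7.04 (−5.72 on the log2 scale with a standard error of 0.34, adjusted p = 8.7e-05). *Myh7*, the beta myosin heavy chain of fetal and of overloaded mouse hearts, rose from 87.3, 96.4 and 189.7 CPM to 3404, 595 and 1004 (3.74, standard error 0.63, adjusted p = 0.00301). All 3 hearts of 1 month are above all 3 of 1 week for *Myh7*, and replicate 1 is the highest of the 1-month hearts. The atrial light chain *Myl4*, at 132, 579.9 and 189 CPM and then 570.1, 437 and 429.7, did not pass the test (0.66, adjusted p = 0.304). Markers of atrial myocytes summed to 436, 2110 and 693 CPM in the 1-week hearts and to 2730, 1750 and 1840 in the 1-month hearts, so these markers varied between libraries, and their part in the results was not tested.

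Of 20 sarcomere genes of the adult ventricle 10 rose and none fell (median 0.58). *Tcap*, telethonin, which ties titin at the Z-disc, had 164, 113 and 135 CPM at 1 week and 795, 779 and 655 at 1 month (2.44, adjusted p = 8.9e-05). *Tnni3*, the adult troponin I that takes the place of *Tnni1*, had 1849, 1515 and 1626 CPM and then 2077, 2559 and 2480 (0.51, adjusted p = 0.0332). *Myh6*, the alpha myosin heavy chain of the adult mouse heart, did not pass at 0.49 (adjusted p = 0.186), nor did the ventricular light chain *Myl2* at −0.21. As a share of the pair per kb of exon, *Tnni1* made up 7.23%, 12.5% and 17.4% of troponin I transcripts in the 1-week *Lmna*-/- hearts and 0.248%, 0.154% and 0.162% in the 1-month hearts. In WT hearts the share went from 13.0%, 14.1% and 15.1% to 0.0223%, 0.0077% and 0.0140%, so each 1-month *Lmna*-/- heart was above each WT heart of that age (exact permutation test, two-sided, p = 0.1, the smallest that 3 against 3 can give). *Myh7* made up 0.216%, 0.297% and 0.576% of the 2 myosin heavy chains per kb in the 1-week *Lmna*-/- hearts and 7.28%, 1.01% and 2.13% in the 1-month ones, while in WT hearts it went from 0.465%, 0.435% and 0.794% to 0.143%, 0.13% and 0.180%. The coding sequences of *Myh6* and *Myh7* are close copies, and reads that fit both may have been lost or counted to either gene. Subunit pairs of cytochrome oxidase and the ADP/ATP carrier also moved toward the adult form: *Cox7a2* was 52.9% to 58.8% of the pair with *Cox7a1* at 1 week and 34.5% to 38.5% at 1 month, and *Slc25a5* 15.3% to 20.1% of the pair with *Slc25a4* and then 10.5% to 11.7%. In WT hearts of 1 month these 2 shares were 28.3% to 30.5% and 8.65% to 9.74%, below each *Lmna*-/- heart of that age (exact p = 0.1 each).

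**Figure D2:**
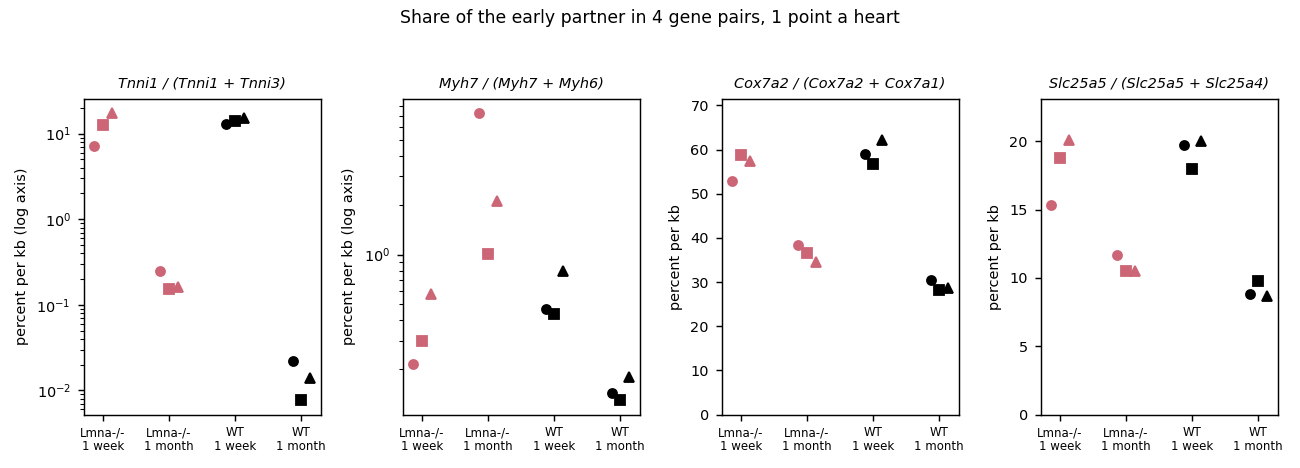
Share of the early partner in 4 gene pairs (percent of the pair's CPM per kb of exon, log axis for the first 2 panels) in *Lmna*-/- hearts (red) and WT hearts (black) of 1 week and 1 month, 1 point a heart. *Tnni1* falls to 0.154% to 0.248% in *Lmna*-/- and 0.0077% to 0.0223% in WT hearts, and *Myh7* is at 1.01% to 7.28% in the 1-month *Lmna*-/- hearts and 0.13% to 0.180% in the WT ones.

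Genes of cardiac stress and hypertrophy rose in part: 9 of 18 tested were called higher and none lower (median 0.88). Atrial natriuretic peptide (*Nppa*), released by stretched myocytes, had 44.8, 309.6 and 131 CPM at 1 week and 1333, 641 and 652 at 1 month (2.41, adjusted p = 0.0143), and is itself 1 of the 6 atrial markers, as are *Myl4* and *Sln*. *Ankrd1*, a titin-bound stress sensor, had 818, 814 and 1323 CPM and then 4707, 1828 and 2000 (1.53, adjusted p = 0.014). In both, replicate 1 is the highest of the 1-month hearts. The B-type peptide *Nppb*, at 40.01, 83.6 and 132 CPM and 185, 107 and 88.5, was not called (0.56, adjusted p = 0.303), and its ages overlap. *Hspb1*, a small heat shock protein of the Z-disc, and the phosphatase *Dusp4*, which dampens MAP kinases, rose (0.93 and 1.32). In the fit over 12 hearts the list's median was 0.86 in *Lmna*-/- and 0.17 in WT hearts, and 16 of 18 genes had the larger value in *Lmna*-/- hearts, where 5853 of all 12124 genes did. The median difference was 0.58, 0.341 to 0.733 with any 1 heart left out and 0.543 in the 9 hearts without *Xist*. No gene of the list passed the test of the difference. Without replicate 3 of the 1-week hearts 6 of the list rose with age, and without replicate 1 of the 1-month hearts 4.

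**Figure D3:**
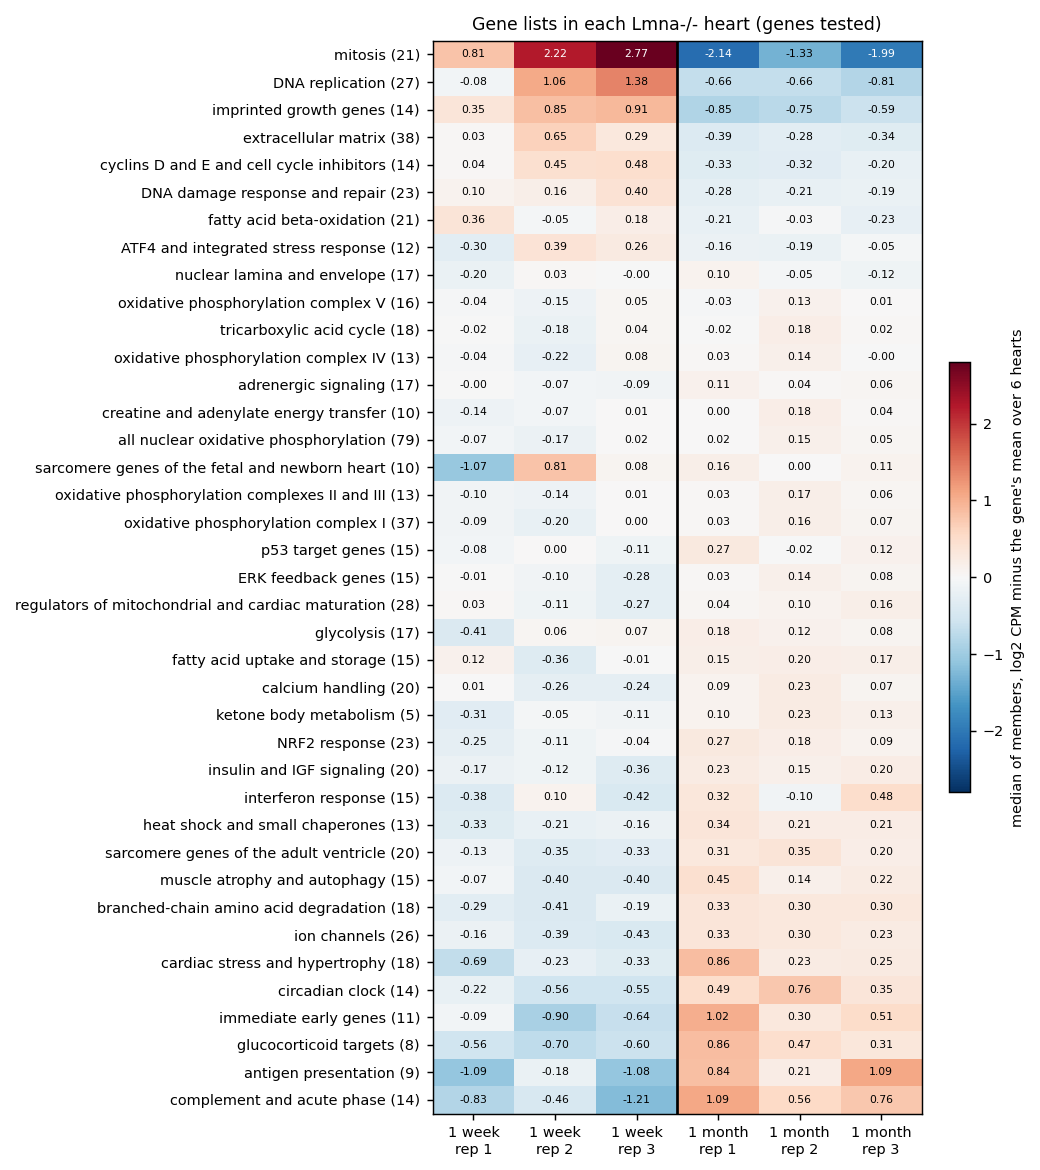
Median of each list's tested members in each of the 6 *Lmna*-/- hearts, as log2 CPM minus the gene's mean over the 6 hearts (red above, blue below), with the number of genes tested after the list's name and lists ordered by the difference between the ages. Mitosis goes from 0.81, 2.22 and 2.77 to −2.14, −1.33 and −1.99, and complement and acute phase genes from −0.83, −0.46 and −1.21 to 1.09, 0.56 and 0.76.

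Genes of fatty acid oxidation fell more often than they rose. Of 21 tested 7 were lower, 1 higher and 13 not called (median −0.35), beside 14.2% of all genes lower. *Hadha*, the alpha subunit of the trifunctional protein that carries out 3 steps of the cycle, had 1935, 1291 and 1622 CPM at 1 week and 961, 1093 and 959 at 1 month (−0.69, adjusted p = 0.0153). The mitochondrial thioesterase *Acot2* had 207, 118 and 179.8 CPM and then 46.4, 64 and 48.7 (−1.66, adjusted p = 0.000903). *Echs1*, the short-chain enoyl-CoA hydratase, was the 1 that rose (0.48), and medium-chain dehydrogenase *Acadm* was at 767, 587 and 734 CPM and 721, 780.1 and 716 (not called, 0.088). Without replicate 1, 2 or 3 of the 1-week hearts 7, 11 and 3 of the list were lower, and without replicate 1, 2 or 3 of the 1-month hearts 2, 4 and 2. Upstream, *Fabp3*, the fatty acid binding protein of the myocyte, fell from 1890, 1605 and 1883 CPM to 814, 935 and 744 (−1.11, adjusted p = 0.000997). Lipoprotein lipase (*Lpl*) rose from 2045, 1281 and 1395 CPM to 4673, 3719 and 4104 (1.41, adjusted p = 0.00171), as did the lipases *Pnpla2* and *Lipe*, the fatty acid transporter *Slc27a1* and the triglyceride synthase *Dgat2* (1.11, 0.79, 0.62 and 1.36). Of the fatty acid uptake and storage list 5 rose, and 3 did without replicate 2 or 3 of the 1-week or of the 1-month hearts. *Cd36*, the fatty acid translocase, was at 2308, 1341 and 1708 CPM and 1935, 1653 and 1513 (not called).

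The nuclear genes of oxidative phosphorylation changed little. Of 79 genes 9 rose, 2 fell and 68 were not called, with a median of 0.14, and 15 rose without replicate 1 of the 1-week hearts and 4 to 7 without any other of the 6. The 3 muscle forms of cytochrome oxidase subunits rose, *Cox7a1* from 149, 118 and 139 CPM to 244, 276 and 274 (0.97, adjusted p = 0.000755), *Cox6a2* by 0.91 and *Cox8b* by 0.64, and 6 genes of complex I rose, *Ndufs7* by 0.46. Of complex I 9 genes rose without replicate 1 of the 1-week hearts, 1 without replicate 2 of the 1-month hearts and 3 or 4 without any other of the 6. The other two called genes fell, *Cox8a* (−0.71), the form of the liver and of the fetal heart, and *Ndufc2* (−0.38). No gene of complexes II, III and V was called among 29 tested, *Sdha* being at 1243, 1023 and 1215 CPM and 1284, 1392 and 1324. Of the tricarboxylic acid cycle *Ogdh* and *Pdha1* rose (0.57 and 0.40) and 16 of 18 genes were not called, with 5 rising without replicate 1 of the 1-week hearts and 0 or 1 without any other of the 6. The 13 protein genes of the mitochondrial genome together took 4.41%, 3.27% and 3.88% of the 1-week libraries and 5.96%, 5.44% and 5.56% of the 1-month libraries (exact permutation test, two-sided, p = 0.1, the smallest possible).

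Degradation of branched-chain amino acids was the one fuel pathway in which most genes rose: 12 of 18 were higher and none lower (median 0.64). *Bckdha*, a subunit of the committing dehydrogenase, had 21.3, 10.1 and 11.1 CPM at 1 week and 36.1, 30.5 and 34.6 at 1 month (1.34, adjusted p = 0.00521), and *Hibadh* of the valine branch rose by 0.38. In ketone body metabolism *Oxct1*, which uses ketones, and the transporter *Slc16a1* rose (1.33 and 0.61). Of 17 glycolysis genes 7 rose and none fell, among them *Hk2*, the insulin-regulated hexokinase (166, 158 and 156 CPM, then 296, 305 and 366, 1.01), and *Hk1* (0.51). Leaving out replicate 1 of the 1-week hearts gave 6 higher and 5 lower, and leaving out any other of the 6 gave 3 to 6 higher. Of 10 genes of creatine and adenylate transfer 3 rose, mitochondrial creatine kinase *Ckmt2* (1.4), the creatine transporter *Slc6a8* (0.89) and the ADP/ATP carrier *Slc25a4* (0.45), and the brain form *Ckb* fell (−0.88). Without replicate 1 of the 1-week hearts 2 of the list fell, and without any other of the 6 none did.

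In the fit over 12 hearts 10 of 21 fatty acid oxidation genes fell and 1 rose in *Lmna*-/- hearts, while 11 rose and 2 fell in WT hearts of the same ages, beside 19.4% of all genes lower and 18.1% higher in *Lmna*-/- hearts and 22.0% higher and 22.1% lower in WT hearts. The median change with age was −0.35 in *Lmna*-/- and 0.29 in WT hearts, and 20 of 21 genes had the lower value in *Lmna*-/- hearts (median difference −0.56), where 6271 of all 12124 genes did. For oxidative phosphorylation the medians were 0.13 and 0.43, and 75 of 79 genes had the lower value in *Lmna*-/- hearts (median difference −0.28). In this fit 58 of the 79 were called higher in WT hearts and 16 in *Lmna*-/- hearts, and no single gene of either list passed the test of the difference. With any 1 heart left out the median differences ranged from −0.635 to −0.475 for fatty acid oxidation and from −0.36 to −0.22 for oxidative phosphorylation. In the 9 hearts without *Xist*, which keep 1 WT heart of 1 month, they were −0.324 and −0.0481. No *Lmna*-/- heart of these ages had high *Xist*, so sex and genotype cannot be told apart in these groups for either list or for any other. For degradation of branched-chain amino acids the medians were 0.63 and 1.05, a rise in both genotypes. Its median difference was −0.455, and −0.247 in the 9 hearts without *Xist*.

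Hearts of 2 weeks show that the path between the ages was not a straight one for these genes. *Xist* was high in 1 of the 3 hearts of each genotype at that age. Relative to the mean of the 1-week *Lmna*-/- hearts, oxidative phosphorylation genes had medians of 0.63, 0.63 and 0.49 in the *Lmna*-/- hearts of 2 weeks and 0.06, 0.21 and 0.12 in those of 1 month. Fatty acid oxidation genes went to 0.53, 0.50 and 0.46 and then to −0.35, −0.21 and −0.37. WT hearts had 0.62, 0.44 and 0.49 at 2 weeks and 0.60, 0.32 and 0.49 at 1 month for the first list, and 0.53, 0.33 and 0.33 and 0.32, 0.051 and 0.27 for the second. For both lists the *Lmna*-/- hearts of 2 weeks are thus within or above the WT range of that age, and those of 1 month are below every WT heart of 1 month. Of the 79 oxidative phosphorylation genes 60 had a 2-week mean beyond that of 1 month. No test was run across the 3 tables for these medians, and a difference between tables cannot be told apart from age.

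**Figure D4:**
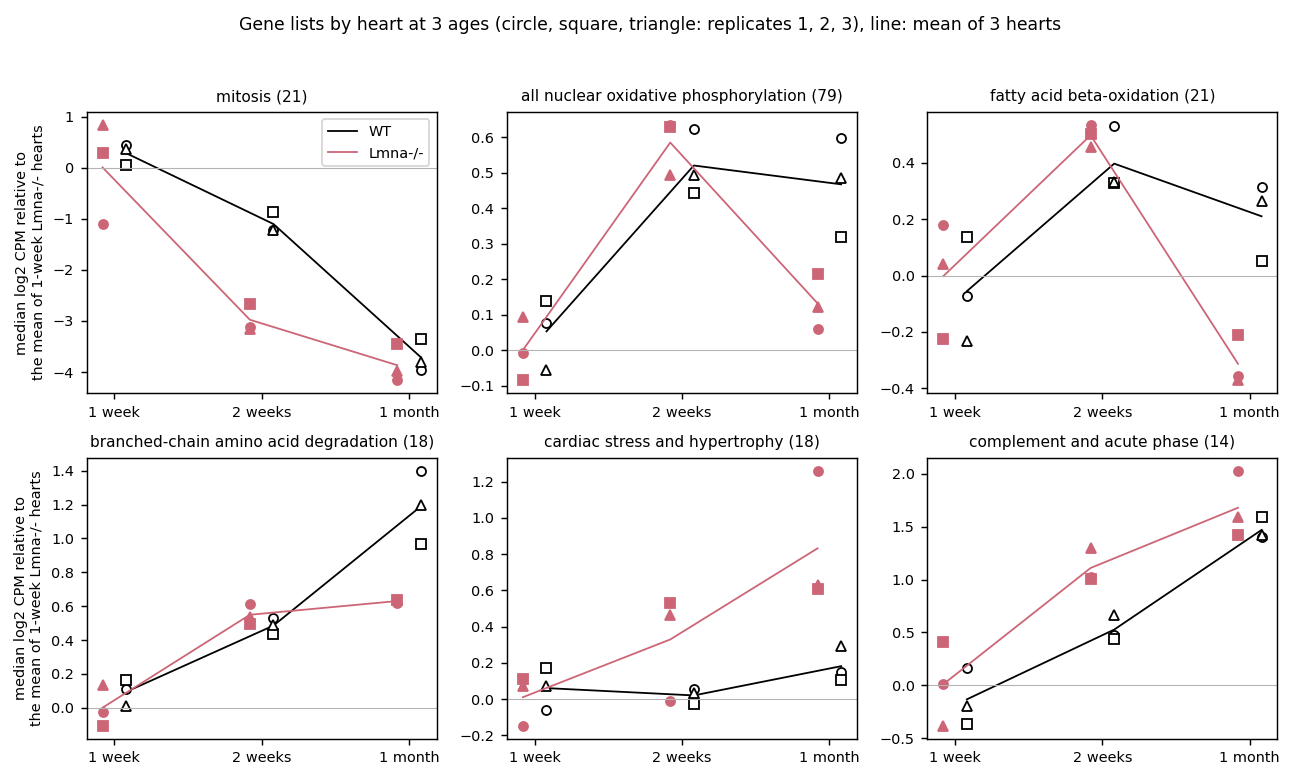
Median log2 CPM of 6 gene lists in each of the 18 hearts relative to the mean of the 1-week *Lmna*-/- hearts (y axis), with the 3 ages along the x axis, for *Lmna*-/- (filled red) and WT (open black), with lines through the means of 3 hearts. Oxidative phosphorylation and fatty acid oxidation rise to 2 weeks in both genotypes and are lower again at 1 month in *Lmna*-/- hearts. Fatty acid oxidation is also lower again in WT hearts, with 0.53, 0.33 and 0.33 at 2 weeks and 0.32, 0.051 and 0.27 at 1 month. Mitosis falls earlier in *Lmna*-/- than in WT hearts.

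Among 28 regulators of mitochondrial and cardiac maturation 13 rose and 3 fell (*Erbb2* −0.79, *Tbx20* −0.63 and *Tfam* −0.39). *Klf15*, a factor of lipid and amino acid use, had 13.2, 8.61 and 8.4 CPM at 1 week and 48.6, 31.1 and 36.7 at 1 month (2.02, adjusted p = 0.000595). Without replicate 3 of the 1-week hearts, or replicate 2 or 3 of the 1-month hearts, 8 regulators rose in each fit. The nuclear receptor *Esrra* rose by 0.39, and the coactivator *Ppargc1a* and the lipid receptor *Ppara* were not called (−0.16 and 0.16). Of 26 ion channel genes 12 rose and 1 fell. The potassium channels *Kcnd2* and *Kcnd3* of the transient outward current rose, *Kcnd2* from 26.9, 13.4 and 17.1 CPM to 32.6, 46.7 and 44.8 (1.17) and *Kcnd3* by 2.59. *Kcne1*, a subunit of the slow delayed rectifier, fell from 187, 133 and 147 CPM to 26, 34.7 and 33.3 (−2.31, adjusted p = 0.000105). In calcium handling 6 of 20 rose, among them the release channel *Ryr2* (4453, 2809 and 2918 CPM, then 5256, 5862 and 5268, 0.69) and sarcolipin (*Sln*, 1.33), an atrial gene, and 1, *Bin1* of the T-tubules, fell (−0.87). Without replicate 1 of the 1-week hearts 10 of 21 calcium handling genes rose, while 2 or 3 of 20 did without any other of the 6. The calcium pump *Atp2a2* and its inhibitor *Pln* were not called (0.56 and 0.37). In adrenergic signaling the 3 that fell were *Ppp1r1a*, *Akap5* and *Gng11* (−1.77, −1.53 and −1.12), and the 4 that rose were *Gnao1* (1.92), *Adcy5*, *Adcy6* and *Pde4d* (0.48 to 0.58), while the receptor *Adrb1* was not called (0.32).

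The extracellular matrix genes fell as a group. Of 38 tested 21 were lower, 5 higher and 12 not called (median −0.73). Collagen I (*Col1a1*) had 1213, 2433 and 1556 CPM at 1 week and 622, 718 and 712 at 1 month (−1.34, adjusted p = 0.0037), and *Col3a1* changed by −1.52. Periostin (*Postn*), a mark of active fibroblasts, had 1124, 2025 and 1798 CPM and then 291, 295 and 212 (−2.63, adjusted p = 0.000248), and tenascin C (*Tnc*) 39.7, 246 and 157 and then 17.5, 21.1 and 28.9 (−2.75). None of these 4 genes overlaps between the ages. The 5 that rose were *Cilp* (14.3, 30.7 and 11.9 CPM, then 141, 49.6 and 42.2, 1.98), a matrix protein of cartilage and of fibrotic hearts, *Col8a1* (1.86), *Timp3* (1.1), *Fbln1* (0.92) and decorin (*Dcn*, 0.59), and 3 rose without replicate 3 of the 1-week or replicate 1 of the 1-month hearts. The 7 markers of fibroblasts summed to 2970, 4220 and 3050 CPM at 1 week and 4820, 3510 and 4020 at 1 month. Of these markers 3 were called higher, 3 lower and 1 not called. Much of the 1-month sum is *Gsn*, at 259, 269.8 and 221 CPM at 1 week and 2667, 1672 and 2137 at 1 month. The sum thus does not show how the other markers moved, and it shares *Col1a1* and *Dcn* with the matrix list. Fewer cells of a type cannot be told apart from less RNA per cell in whole hearts. The list's median in WT hearts was −0.80, beside −0.73 in *Lmna*-/- hearts in the same fit.

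Complement and acute phase genes rose in 12 of 14 tested, with none lower and a median of 1.84, the highest of all lists. *C3*, at which the pathways of complement meet, had 72.5, 135 and 65.7 CPM at 1 week and 464, 278 and 441 at 1 month (2.1, adjusted p = 0.00131). *C4b* had 8.11, 13.5 and 3.45 CPM and then 69.7, 36.9 and 59.8 (2.64), and has a close copy on the same chromosome. Of 9 antigen presentation genes 5 rose, the class II genes *H2-Aa* (3.02), *H2-Ab1* (2.75) and *H2-Eb1* (2.1), their chaperone *Cd74* (8.11, 12.8 and 4.35 CPM, then 54.3, 30.01 and 80.02, 2.62) and the class I gene *H2-D1* (0.96). The 7 macrophage markers summed to 143, 191 and 135 CPM at 1 week and 396, 337 and 359 at 1 month, with 6 of 7 called higher, none at 0 and no overlap between the ages, and their part in these lists was not tested. *Gpnmb*, a lysosomal glycoprotein of macrophages, rose from 1.68, 1.64 and 1.8 CPM to 24.6, 12 and 14.3 (3.33, adjusted p = 0.000383). In WT hearts the complement list also rose, by 1.51 beside 1.8 in *Lmna*-/- hearts. Interferon response genes were called higher in 3 of 15 (*Ifit1*, *Irf7* and *Ifit3*, 1.55 to 1.85), and the median change was 0.37 in *Lmna*-/- and 0.82 in WT hearts, a difference that all 15 genes shared in sign and none passed alone. Without replicate 2 of the 1-week *Lmna*-/- hearts the median difference moved from −0.63 to −0.177 and 6 genes rose with age, while none did without replicate 1 of the 1-month hearts.

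Of 14 tested circadian clock genes 10 rose, among them *Nr1d1* and *Dbp*, and 3 fell. *Nr1d1*, the repressor REV-ERB alpha, had 15.4, 14.4 and 12.9 CPM at 1 week and 109.7, 88.3 and 111 at 1 month (2.86, adjusted p = 2.8e-05), and *Dbp* 7.83, 8.34 and 9.91 and then 45.9, 56 and 43.5 (2.47). The 3 that fell were the activators *Arntl* (19.6, 19.1 and 17.7 CPM, then 11.2, 3.11 and 9.45, −1.19), *Npas2* (−1.2) and *Clock* (−0.56). The time of day at which hearts were taken is not given in the sources used here, and it cannot be told apart from age. Immediate early genes, which rise within minutes of handling or stress, were higher in 5 of 11, *Nr4a1* most (24.3, 8.15 and 5.25 CPM, then 150.1, 123 and 145, 3.65), with *Atf3*, *Junb*, *Zfp36* and *Klf4* (0.61 to 2.0), while *Fos* and *Egr1* were not called (2.08 and 1.6). Leaving out replicate 1 of the 1-month hearts left 3 of them higher. Glucocorticoid targets rose in 6 of 8, with *Zbtb16* from 14.3, 20.6 and 6.9 CPM to 195, 131 and 74.1 (3.21) and *Tsc22d3* by 0.73. Of 23 genes of the NRF2 response to oxidants 8 rose, led by *Gstm1* (2.38), which has close copies, and by *Nqo1*, the quinone reductase (14.6, 12.9 and 12.3 CPM, then 65.5, 44.7 and 51.3, 2.04), and 1, *Prdx1*, fell (−0.39). Without replicate 3 of the 1-week or replicate 1 or 2 of the 1-month hearts 5 of these rose. Small heat shock proteins of the myocyte rose, *Hspb8* by 1.53 and *Cryab* by 1.19, while the cytosolic chaperone *Hsp90aa1* and the mitochondrial *Hspd1* fell (−0.67 and −0.57), 1 of the list being called lower without any 1 heart other than replicate 1 of the 1-week hearts. Of 15 muscle atrophy and autophagy genes 8 rose, among them the ubiquitin ligase *Fbxo32* (1.34) and *Bnip3* (0.99). Of 15 p53 target genes 4 rose (*Btg2*, *Cdkn1a*, *Ccng1* and *Mdm2*, 0.49 to 1.41) and *Plk2* fell (−0.51). Without replicate 3 of the 1-week or replicate 1 of the 1-month hearts 2 rose, without replicate 2 or 3 of the 1-month hearts none fell, and *Cdkn1a* kept its call in 11 of 18 alternatives. The p53 list had a median of 0.23 in *Lmna*-/- and −0.35 in WT hearts, with 14 of 15 genes larger in *Lmna*-/- hearts and none passing alone.

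Some of the largest rises lie in none of the 40 gene lists, though *Gsn* is 1 of the 7 fibroblast markers. *Art1*, an ADP-ribosyltransferase of muscle, had 13.7, 6.31 and 2.1 CPM at 1 week and 92.1, 101 and 87.4 at 1 month (3.82, adjusted p = 0.000539). *Gsn*, the actin-severing gelsolin, had 259, 269.8 and 221 and then 2667, 1672 and 2137 (3.11), and *Xdh*, xanthine dehydrogenase, 10.1, 12.9 and 3.75 and then 141, 74.7 and 107 (3.54). *Prune2* rose by 3.27, *Apod*, an apolipoprotein of stressed tissue, by 3.14, and *Scd1*, stearoyl-CoA desaturase, from 11.2, 37.6 and 25.4 to 121, 52.5 and 426 (2.93), the 1-month hearts lying far apart. The 7 adipocyte markers summed to 25.5, 201 and 124 CPM at 1 week and 93.9, 33.7 and 222 at 1 month. Within each age they order the hearts as *Scd1* does, and their part in its values was not tested. *Art1*, *Gsn*, *Xdh*, *Prune2* and *Scd1* changed by 4.23, 3.29, 3.71, 3.46 and 3.45 in WT hearts of the same ages.

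The test of whether a gene's change with age differed between *Lmna*-/- and WT hearts called 6 of 12124 genes, 1 with the larger value in *Lmna*-/- hearts (0.00825%) and 5 with the smaller (0.0412%), and 1582 at an unadjusted p under 0.05. DESeq2 called 102. In this fit 1605 genes besides *Ces1d* and *P2ry1* rose in both genotypes and 1789 fell in both, and 9 were called in opposite directions without passing the test of the difference. The 1 larger value was that of *Myh7*, at 86.2, 95.4 and 187 CPM in the *Lmna*-/- hearts of 1 week and 3348, 584 and 986 in those of 1 month, and at 157, 184 and 271 and 80.6, 65.7 and 103 in the WT hearts. It rose by 3.74 in *Lmna*-/- hearts and was at −1.29 in WT hearts (adjusted p = 0.0523), a difference of 5.02 (standard error 0.73, adjusted p = 0.0297, edgeR). *Ces1d*, a carboxylesterase with lipase activity that has close copies beside it, had 8.56, 20.7 and 8.87 and 49, 42.2 and 74.8 CPM in *Lmna*-/- hearts and 1.84, 1.25 and 3.97 and 112, 106 and 117 in WT hearts. It rose in both, by 2.0 and 5.6 (difference −3.61, adjusted p = 0.0297), and the 1-week *Lmna*-/- hearts were already above the WT ones. *P2ry1*, a receptor for extracellular ADP, had 11.1, 9.1 and 10.1 and 15.9, 14 and 12.9 CPM in *Lmna*-/- hearts and 7.27, 6.97 and 7.35 and 39.7, 27.6 and 32.1 in WT hearts (difference −1.66, adjusted p = 0.0297). *Fkbp4*, a cochaperone of steroid receptors, rose by 0.97 in WT hearts and was at 0.069 in *Lmna*-/- hearts. *Sdr39u1* rose by 1.03 in WT and was at 0.11 in *Lmna*-/- hearts, and *Apba3* by 1.14 and at −0.033. These last 3 genes thus have a called change in WT hearts only, with differences of −0.90, −0.92 and −1.17 (adjusted p = 0.0297, 0.0297 and 0.0407). None of the 6 stayed called without replicate 3 of the 1-month *Lmna*-/- hearts, replicate 1 or 3 of the 1-week WT hearts, or replicate 1 or 3 of the 1-month WT hearts, 0 genes being called in these fits, nor without replicate 2 of the 1-week WT hearts, where 1 other gene was called, nor in the 9 hearts without *Xist* or with *Xist* as a covariate. *Gpnmb* and *Cox7a1* did not pass, with differences of 2.56 and −0.90 (adjusted p = 0.0705 each). *Tnni1*, left out of this fit because a WT heart had too few counts, had a difference of 3.36 (standard error 0.561, adjusted p = 0.0802) with the filter of edgeR's filterByExpr.

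**Figure D5:**
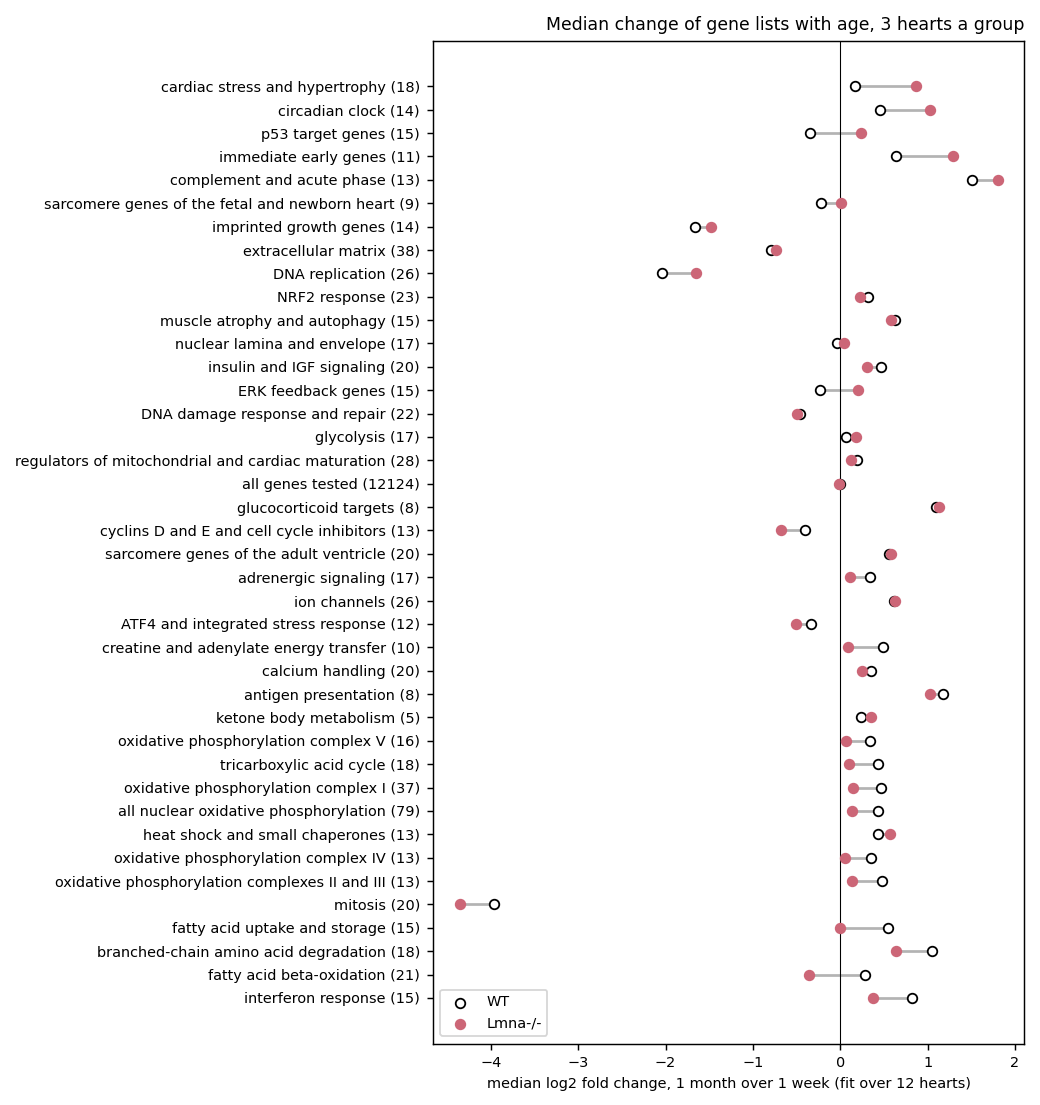
Median log2 fold change from 1 week to 1 month (x axis) of each gene list in WT (open) and *Lmna*-/- hearts (red), from 1 fit over 12 hearts, ordered by the median difference, with the number of genes after the list's name. Fatty acid oxidation, with −0.35 in *Lmna*-/- and 0.29 in WT hearts, stands near the bottom and cardiac stress genes, with 0.86 and 0.17, at the top.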

How the data were processed

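RNA was sequenced from whole hearts (paired reads of 100 bp). The submitters' processing notes name STAR 2.3.1d and mm10, while the study's methods give another version of STAR. Per those methods the authors kept uniquely mapped reads, and they deposited raw counts per Ensembl gene, in 1 table for each age. The methods also state that a read mapping to several places was counted once, so the handling of shared reads is uncertain. Whether strand was used in counting is not given in the sources used here. The tables were joined by gene ID. Groups follow the sample titles, with 3 hearts per genotype and age. The members of this comparison and the 40 gene lists were chosen with earlier results of these data known.

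Genes of the mitochondrial genome were set aside, genes exceeding 5 counts in every one of the 6 hearts were kept, and edgeR 4.0.16 (R 4.3.3) was run with TMM normalization and the quasi-likelihood F-test, calling genes at a Benjamini-Hochberg adjusted p under 0.05. WT changes and the difference between genotypes come from 1 fit over 12 hearts, under the same rule for all 12. On simulated data the first fit found 87 of 100 genes changed 2-fold and 99 of 99 changed 4-fold, with 4 false calls over 12182 genes. The test of the difference found 58 of 100 and 99 of 99, with 10 false calls over 11967 genes. The simulation gave every gene the same spread at both ages and changed only a small part of the genes, all with ample counts. In the data the 1-week hearts varied more and far more genes changed, so these figures are not error rates of the real comparisons. DESeq2 1.42.0 and limma 3.58.1 served as alternatives.

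Genes were named from *Lmna*, the 12 largest rises and 12 largest falls among called protein-coding genes without overlap and with at least 10 CPM, genes passing the test of the difference, the first 3 members of each list and each list's called members with the largest change. Members behind counts of 5 or fewer, and *Cox7a2*, *Slc25a4*, *Slc25a5* and *Tg*, were added after their values were seen. Windows for promoters are from RefSeq. Reads shared by close copies may have been dropped by the counting of uniquely mapped reads, but their handling is uncertain, as stated above. Depth ranged from 9344185 to 25404168 counts per library.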

Additional observations from a re-analysis of the deposited data

Results flagged for a closer look

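In 6 genes the change from 1 week to 1 month differed between *Lmna*-/- and WT hearts by the test of the difference itself, with 3 hearts in each of the 4 groups. The difference, as the log2 change in *Lmna*-/- minus that in WT hearts, was 5.02 for *Myh7*, −3.61 for *Ces1d*, −1.66 for *P2ry1*, −1.17 for *Apba3*, −0.916 for *Sdr39u1* and −0.904 for *Fkbp4* (adjusted p = 0.0297 for 5 of them and 0.0407 for *Apba3*, edgeR). *Xist* was low in all 6 *Lmna*-/- hearts and high in 3 of the 6 WT hearts, and its part in these differences cannot be told apart from genotype in groups of this size.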

How the results depend on the processing

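For the change with age in *Lmna*-/- hearts, which called 3485 genes, 12 alternatives of scaling, filter, test, samples and block gave 2823 to 5011 calls, and minimum changes of 1.5-fold and 2-fold left 2465 and 1229. Leaving out 1 heart gave 2075 to 4898 calls, the lowest without replicate 3 of the 1-week hearts, where each such fit has fewer samples. Of the 153 called genes named in the text none changed direction in any of these fits. Scaling by library size alone split the calls into 1146 higher and 2928 lower, where TMM gave 1726 and 1759. For the difference between genotypes, which called 6 genes, library size alone called 15, DESeq2 102, voom with quality weights 29, the fit over 18 hearts 78, the GC correction 3, the *Xist* covariate 0 and the 9 hearts without *Xist*, a set chosen after seeing the data, 0, while leaving out 1 heart gave 0 to 14. Values with age of 5 genes that were not called changed sign: *Lmna* ranged from −0.755 to 0.012 with 1 heart left out, *Acadm* from −0.0306 to 0.141, *Cd36* from −0.248 to 0.136 and *Rfc1* from −0.142 to 0.0269, and by library size alone *Acadm* was at −0.0665 and *Ppara* at −0.00496.

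The replicate numbers did not pair the hearts, with correlations of same-numbered deviations of −0.054, −0.15 and −0.078. A replicate block called 2823 genes for age, 2757 of them shared with the fit without it, and 1 gene, *P2ry1*, for the difference between genotypes.

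Depth limits genes near the floor of 0.21 to 0.86 CPM, which the filter on counts leaves out. With 3 hearts per group no exact permutation test can go below 0.1.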

Other observations

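Of 12 tested genes of the ATF4 response to amino acid shortage 4 fell and none rose (median −0.49): *Asns*, which makes asparagine (−1.36), *Phgdh*, the first enzyme of serine synthesis (−1.49), *Aldh18a1* of proline synthesis (−1.3) and *Pck2* (−0.70), and without replicate 1 of the 1-week hearts 7 fell and 2 or 3 without any other of the 6. Of 15 feedback genes of ERK signaling 5 rose, *Spry4* (0.52), *Dusp4* (1.32), *Dusp5* (0.92), *Spred2* (0.69) and *Etv5* (1.38), and 1 fell, *Dusp6*, the phosphatase of ERK itself (−0.45). Of this list 2 rose without replicate 1 of the 1-month hearts and 3 without replicate 3 of either age, while 2 and 1 fell without replicate 1 and 3 of the 1-week hearts and none without any other of the 6. Of 21 genes that the study named at both later ages 14 rose and 5 fell, which is not independent evidence of a direction, since they were chosen on these hearts.

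The library with *Tg* at 303 CPM, replicate 3 of the 1-week *Lmna*-/- hearts, also held the highest *Lmna* value of the 6.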
